A study of Mus musculus with 6 samples.

Results

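NRF2, encoded by Nfe2l2, its partners and 4 of its target genes were examined in erythroblasts of mice that lack the microRNA locus miR-144/451. The 10 genes were Nfe2l2, Keap1, Nfe2l1, Bach1, Mafg, Mafk, Nqo1, Slc7a11, Osgin1 and Me1, chosen by symbol. Every probe set whose platform annotation names 1 gene with one of these symbols was taken, which gave 16 of 45037 probe sets and 10 of 18193 genes. Bone marrow cells that carried both Ter119, a surface marker of the erythroid lineage, and CD71, the transferrin receptor, and that had high forward scatter (large cells) were sorted into Trizol LS. Total RNA of 3 samples with the genotype miR-144/451 knockout (KO) and 3 with the genotype wild type (WT) was hybridised to Affymetrix Mouse Genome 430 2.0 arrays, 1 array per sample. The arrays are called WT 497, WT 504, WT 550, KO 493, KO 548 and KO 551 after the numbers in their titles. Each is taken here as 1 mouse, although what these numbers stand for is unclear. Strain, age, sex and the extent of the deletion were not given in the sources used here, no treatment was named, and nothing in the labels pairs KO with WT mice. The KO and WT designations rest on the labels, since the microRNAs were not measured by the probe sets used here.

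NRF2 is a basic leucine zipper factor of the CNC family that switches on genes against oxidants and electrophiles. KEAP1 holds NRF2 in the cytoplasm and hands it to a CUL3 ubiquitin ligase, and oxidants that modify KEAP1 let NRF2 escape. In the nucleus NRF2 pairs with a small MAF protein (MAFG, MAFK or MAFF) on antioxidant response elements, where BACH1, which haem removes, competes as a repressor. NFE2L1 is a CNC relative that is best known for driving proteasome genes. Red cells carry oxygen, iron and haem, and so depend on such defences. Nfe2l2 is a known target of miR-144, and the comparison asks what becomes of it and its network when the locus is missing.

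The mature microRNAs of the deleted locus are shown because their seeds, bases 2 to 8 in capitals, set which transcripts they can pair with. Sequences and positions are those of RefSeq on mouse build GRCm38.p6, where miR-144-3p lies at chr11:78073047-78073066, miR-144-5p at chr11:78073010-78073032 and miR-451a at chr11:78073186-78073207, all on the plus strand. The seeds differ from one another. Transcript sequences were not at hand, so sites for these seeds in Nfe2l2, Bach1 or other transcripts were not searched.
miR-144-3p: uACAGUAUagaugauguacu
miR-144-5p: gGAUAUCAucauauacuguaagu
miR-451a: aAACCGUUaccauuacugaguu

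Promoters of all 10 genes were found in RefSeq (15 promoters, each from 250 bases before to 50 bases after an annotated start). They were searched on both strands for TGACNNNGC, the core letters of the antioxidant response element, and for TGACTCAGC, which is one form of it. The core letters occurred in 4 of the 15 promoters (26.7%), 1 each of Nfe2l2, Mafg, Mafk and Me1, while 12.4% of all 32851 promoters hold them. Nfe2l1 alone had 5 of the 15, none with a match. Of 55 promoters of other NRF2 targets, listed further below, 34.5% hold the core letters. TGACTCAGC occurred in the same Me1 promoter and in 0.454% of all promoters. The stretches around the 4 matches are printed with the match in capitals, read along the gene's own strand. In Nfe2l2 and Me1 the match reads along the gene, and in Mafk and Mafg it reads on the opposite strand, as TGACACCGC and TGACCGTGC. The matches begin 240 bases before the annotated start of Nfe2l2, 222 before that of Mafg, 13 before that of Mafk and 6 before that of Me1. The positions, on GRCm38.p6, are chr2:75704885-75704913 (minus strand), chr11:120633751-120633779 (minus), chr5:139791513-139791535 (plus) and chr9:86695912-86695930 (minus). A match of letters is not evidence that a factor binds there. Bases farther from the start were not searched, so a promoter without a match does not show that the gene lacks the element.
Nfe2l2: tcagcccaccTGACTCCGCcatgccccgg
Mafg: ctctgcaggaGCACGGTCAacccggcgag
Mafk: gatcccggaaGCGGTGTCAgtac
Me1: gatgccgccgTGACTCAGC

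Intensities are given as log2, on which a difference of 1 is a doubling, and differences are KO minus WT. They were tested with limma, and a probe set was called when its p, adjusted by Benjamini-Hochberg over all 45037 probe sets, was under 0.05. Erythroid markers were bright, with a mean level over 8 measured markers of 12.36 to 12.41 in WT and 12.25 to 12.31 in KO, on arrays whose medians were 5.62 to 5.78. Of the 8 erythroid markers 7 had a lower KO mean, with a median difference of -0.105 beside -0.04 for all genes. Markers of other blood cells were also measured and tended to be lower in KO. The 9 neutrophil markers had a mean level of 11.88 to 12.01 in WT arrays and of 11.39 to 11.76 in KO arrays (9 of 9 with a lower KO mean), and 8.69 to 9.18 and 8.19 to 8.50 for 7 B cell markers (6 of 7 lower). It was 8.75 to 9.28 and 8.58 to 8.84 for 11 macrophage markers (10 of 11 lower), and 6.43 to 7.20 and 5.91 to 6.41 for 7 T and NK cell markers (7 of 7 lower). For 6 markers of eosinophils, basophils and mast cells it was 8.57 to 9.46 and 8.18 to 8.33 (6 of 6 lower), for 6 early progenitor markers 6.85 to 7.23 and 6.49 to 6.62 (6 of 6 lower), and for 5 megakaryocyte markers 9.74 to 9.84 and 9.73 to 9.84 (3 of 5 lower). Of the 51 markers of other cells limma called 0, beside 0.385% of all genes. Among them 0 higher and 20 lower had an unadjusted p under 0.05, against 21.0% of all genes in either direction. In such bulk samples fewer cells of a type and less RNA per cell cannot be told apart. The control probe set at the 3' end of actin read higher than that at the 5' end by 1.82 to 1.86 on KO arrays. On WT arrays it did so by 1.65 to 1.67, so the genotypes did not overlap. The same measure for Gapdh overlapped between genotypes, at 1.03 to 1.09 on WT arrays and at most 1.05 on KO arrays. The part of the actin difference in the values below was not tested. Array medians were lower in KO (5.62 to 5.68) than in WT (5.73 to 5.78).

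Limma called none of the 16 probe sets, against 0.355% of all probe sets (83 higher and 77 lower in KO; with arrays centred on their medians 320 higher and 91 lower). An unadjusted p under 0.05 was found for 5 of the 16, 4 higher and 1 lower, where 19.8% of all probe sets had one. In 6 of the 16 the KO values lay wholly above (4) or below (2) the WT values, against 26.0% of all probe sets. The KO mean was higher in 6 probe sets and lower in 10, with a median difference of -0.09 beside -0.04 for all probe sets. With an intensity trend and a robust prior in the same model, 2 of the 16 were called, the brighter probe sets of Nfe2l2 and Bach1, where 3.53% of all probe sets were.

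Nfe2l2, the activator, had 2 probe sets. The brighter read 9.97 in WT 497, 9.77 in WT 504 and 9.82 in WT 550. In the KO mice it read 10.26 (KO 493), 10.35 (KO 548) and 10.21 (KO 551), and values of the other genes follow the same order of arrays. All KO values lay above all WT values, with a gap of 0.24 between the groups. The difference was 0.42 ± 0.11 (SE, n = 3 per group; 95% interval 0.17 to 0.67; adjusted p = 0.127), a 1.34-fold higher mean intensity. Under the trend model it was called (adjusted p = 0.0388), and over all alternatives its adjusted p ran from 0.0388 to 0.31. Its dimmer probe set read 6.71, 6.98 and 6.48 in WT and 7.18, 6.90 and 7.18 in KO, so that KO 548 lay below WT 504. Here the difference was 0.36 ± 0.16 (adjusted p = 0.269), close in size to that of the brighter one. The brighter probe set was at 0.38 to 0.48 when any 1 mouse was left out.

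KEAP1, the oxidant sensor that retains NRF2, had a bright and a dim probe set with opposite signs. The bright one read 10.89, 10.69 and 10.87 in WT and 10.86, 10.95 and 10.87 in KO, and the groups overlapped. The difference was small, at 0.08 ± 0.11 (95% interval -0.17 to 0.33, adjusted p = 0.731). The dim one, at 5.43, 5.51 and 5.30 in WT and 5.12, 5.19 and 5.27 in KO, lay below the median of its arrays and its groups were apart by 0.03. It differed by -0.22 ± 0.11 (adjusted p = 0.311), which leaves Keap1 without a single sign, and the mean of its probe sets was at -0.072. Within each array, Nfe2l2 relative to Keap1 (brighter probe sets) stood 0.34 higher in KO than in WT, a contrast that adding a constant to an array leaves as it is.

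Nfe2l1 had 1 probe set, which read 9.98, 9.93 and 10.13 in WT and 9.54, 9.71 and 9.53 in KO. Every KO array was below every WT array, by a gap of 0.22. The difference was -0.42 ± 0.11 (95% interval -0.68 to -0.16; adjusted p = 0.133), equal in size to that of Nfe2l2 and of opposite sign. Taken within each array, Nfe2l2 relative to Nfe2l1 was 0.88, 0.80 and 0.84 above the WT mean in KO 493, 548 and 551, and between -0.15 and 0.15 around it in the WT arrays. This contrast is set by the differences already given for both genes. Relative to Bach1, Nfe2l2 stood only 0.11 higher in KO than in WT, and relative to Mafg 0.74 higher (brighter probe sets). Nfe2l1 and Mafg lie on chromosome 11, as does the deleted locus, and 1.59% of genes there were called against 0.277% elsewhere. The part of that position in their values was not tested.

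**Figure D1:**
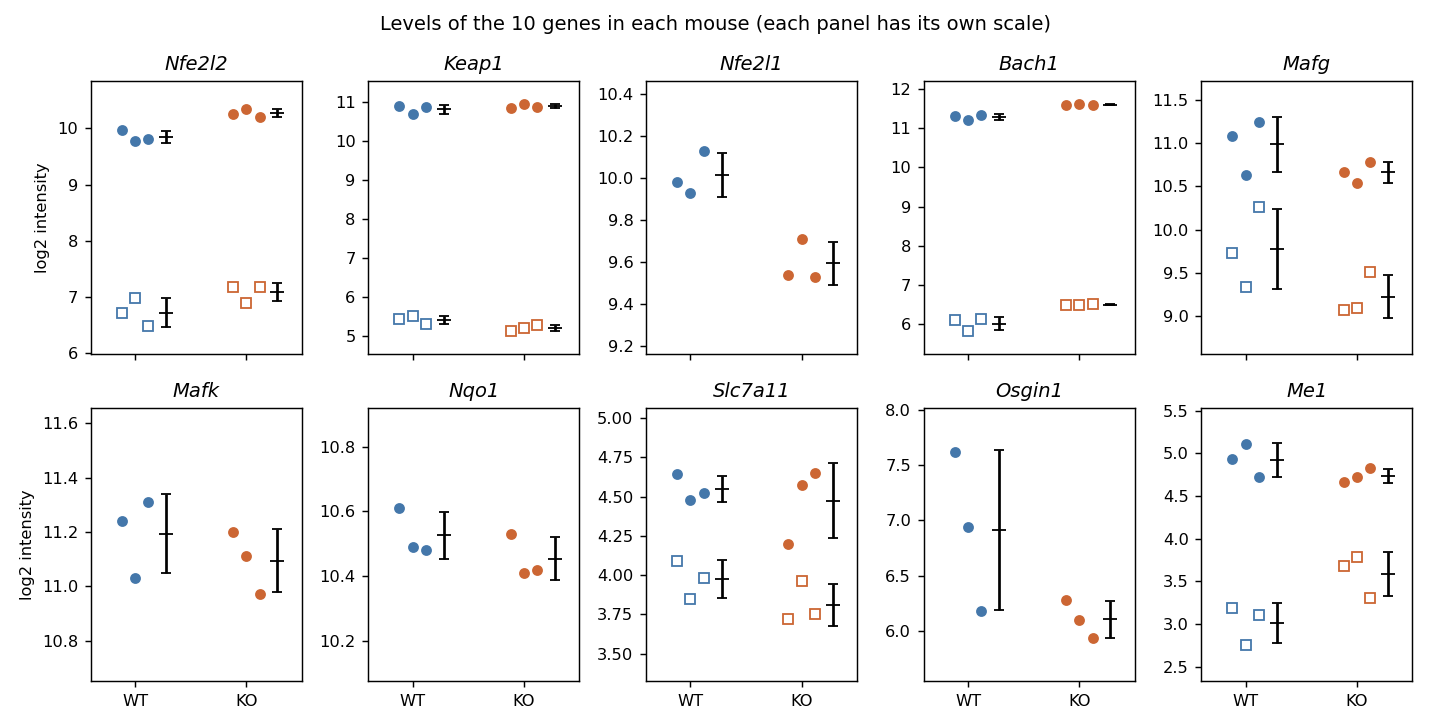
Log2 intensity (vertical axis, a separate scale for each gene) in WT (blue) and KO (orange) arrays, 1 point per array in the order 497, 504, 550 and 493, 548, 551. Filled circles are the brighter or only probe set, open squares the dimmer, and black bars the mean and SD of 3 arrays. Nfe2l2 and Bach1 circles lie higher in all KO arrays than in any WT array and Nfe2l1 lower, while Osgin1 spreads from 6.18 to 7.62 within WT.

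Bach1, the haem-sensitive repressor that competes with NRF2, had higher KO values at both of its probe sets. Its brighter probe set read 11.31, 11.20 and 11.33 in WT and 11.58, 11.61 and 11.59 in KO. The dimmer read 6.10, 5.82 and 6.12 in WT and 6.49, 6.49 and 6.51 in KO. In both, all KO values were above all WT values, and the KO mice lay within 0.03 (brighter) and 0.02 (dimmer) of each other. Differences were 0.31 ± 0.10 (95% interval 0.08 to 0.54; adjusted p = 0.163) and 0.48 ± 0.12 (0.20 to 0.76; adjusted p = 0.12), the latter being the smallest adjusted p among the 16. The brighter was called under the trend model (adjusted p = 0.0226, and 0.0226 to 0.398 over all alternatives). A repressor and an activator that use the same DNA element had higher mean levels in the same 3 KO mice, and neither was called by the test as planned.

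The small MAF partners, which carry no activation domain and serve both NRF2 and BACH1, had lower KO means in all 3 probe sets. Mafg read 11.08, 10.63 and 11.24 in WT and 10.66, 10.54 and 10.78 in KO at its brighter probe set. At its dimmer one it read 9.73, 9.34 and 10.26 in WT and 9.07, 9.09 and 9.51 in KO. WT 504 was the low WT array in both, and it fell among the KO values. The differences were -0.32 ± 0.17 (adjusted p = 0.354) and -0.55 ± 0.25 (adjusted p = 0.278), and they were -0.50 and -0.77 without WT 504 but -0.20 and -0.31 without WT 550. Mafk, at 11.24, 11.03 and 11.31 in WT and 11.20, 11.11 and 10.97 in KO, overlapped between genotypes. It differed by -0.10 ± 0.12 (95% interval -0.39 to 0.19, adjusted p = 0.694), and with arrays centred on their medians it stood at 0.01.

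Among the 4 target genes, Nqo1 encodes a quinone reductase that is a standard readout of NRF2. It read 10.61, 10.49 and 10.48 in WT and 10.53, 10.41 and 10.42 in KO, and the groups overlapped. The difference was -0.07 ± 0.10 (95% interval -0.31 to 0.17, adjusted p = 0.73), an interval that ends at 0.17 above WT. With arrays centred on their medians the sign turned, to 0.037.

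Osgin1, an oxidative stress-induced growth inhibitor, read 7.62, 6.94 and 6.18 in WT and 6.28, 6.10 and 5.94 in KO. The WT mice spread over more than 1 log2 unit, with an SD of 0.72 against 0.17 in KO, and WT 550 lay below KO 493. Its difference was -0.81 ± 0.34 (95% interval -1.61 to 0.00, adjusted p = 0.252), the largest among the 16 and also the least precise. It was -0.45 without WT 497 and -1.17 without WT 550.

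Slc7a11, the cystine importer that feeds glutathione synthesis, was dim in both genotypes. The brighter probe set read 4.64, 4.48 and 4.52 in WT and 4.20, 4.57 and 4.65 in KO. The dimmer was at 4.09, 3.85 and 3.98 in WT and at 3.72, 3.96 and 3.75 in KO. The lower quartile of the arrays was 4.30 to 4.40: the brighter probe set lay above it in 5 of 6 arrays and below it in KO 493, the dimmer below it in all 6, and the groups overlapped. Differences were -0.07 ± 0.14 (adjusted p = 0.818) and -0.16 ± 0.12 (adjusted p = 0.49), and the first turned to 0.037 with arrays centred on their medians and to 0.063 without KO 493. The 95% intervals ran from -0.42 to 0.27 and from -0.45 to 0.12.

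Me1, the malic enzyme that makes NADPH in the cytoplasm, gave opposite signs. One probe set read 4.94, 5.11 and 4.72 in WT and 4.66, 4.72 and 4.83 in KO, with a difference of -0.19 ± 0.13 (adjusted p = 0.47). The other read 3.19, 2.75 and 3.10 in WT and 3.68, 3.78 and 3.30 in KO, with all KO values above all WT values and a difference of 0.57 ± 0.18 (adjusted p = 0.165). The second lay under the lower quartile of every array, where small differences in signal make large ones on the log2 scale. The mean of both probe sets was at 0.19.

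**Figure D2:**
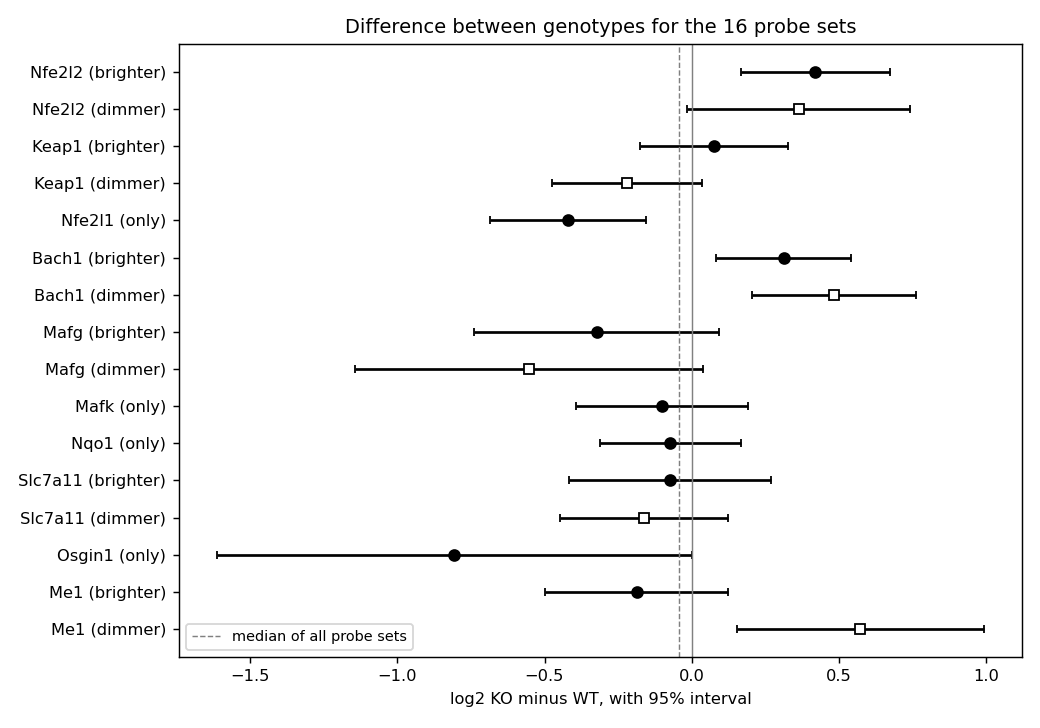
Log2 difference KO minus WT (horizontal axis) with its 95% interval from limma for each of the 16 probe sets, n = 3 per group, before adjustment for multiple tests. The intervals of both Bach1 probe sets, the brighter Nfe2l2 and the dimmer Me1 lie above 0 and that of Nfe2l1 below it; the dashed line is the median of all probe sets, -0.04.

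The pattern of the brighter Nfe2l2 probe set was compared with 9097 genes whose mean level was at least the median of all genes. Likeness was the root mean square difference between log2 profiles over the 6 arrays, each centred on its own mean. The 5 closest genes were Zfand2a (0.028), an AN1-type zinc finger gene, Ssx2ip (0.033), which encodes a centrosomal and junction protein, Ubqln1 (0.040), a ubiquitin-like shuttle factor, Tgm2 (0.042), a transglutaminase, and Dffa (0.045), the inhibitor of the apoptotic DNase. Zfand2a read 10.02, 9.83 and 9.93 in WT and 10.33, 10.37 and 10.25 in KO. Their differences ran from 0.37 to 0.44 and none was called by the test as planned. The 5 genes were picked for likeness over the same 6 arrays. Differences and calls like those of Nfe2l2 therefore follow from the choice. The trend model called Zfand2a, Ssx2ip, Ubqln1 and Tgm2, as it did Nfe2l2, and with dim probe sets left out Ssx2ip and Ubqln1 were called. Over the alternatives that kept each probe set, the lowest and highest adjusted p were 0.0431 and 0.337 for Zfand2a, 0.0141 and 0.31 for Ssx2ip, 0.019 and 0.315 for Ubqln1, 0.00806 and 0.315 for Tgm2 and 0.0707 and 0.365 for Dffa. Among the other 9 genes chosen by symbol Bach1 was closest to Nfe2l2, at 0.080, and Osgin1 farthest, at 0.726.

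Further genes of the pathway came from 9 lists, with the brightest probe set standing for each gene. Of 113 listed genes 104 were measured, that is, had a probe set whose annotation names that gene alone. Ddi2, Gsta1, Htatip2, Esd, Cyp2a5, Prdx1, Prdx6, Ftl1 and G6pdx had none under the listed symbol and enter no median. Of the 104, 1 was called higher and 0 lower by limma, beside 0.385% of all genes. An unadjusted p under 0.05 was found for 8 higher and 11 lower, against 21.0% of all genes, and the trend model called 11: Abcc3, Srxn1, Gstm5, Tkt, Psmb3 and Psmd2 higher, and Btrc, Gstm1, Slc48a1, Idh1 and Cat (catalase, outside the naming rule) lower. In 44 of the 104 the groups did not overlap, against 28.8% of all genes. The median difference was 0.03 beside -0.04 for all genes. Proteasome subunits, targets of NFE2L1, made up 34 of the 104 and 14 of the 44, and had a median of 0.12. Every other list had a median below 0, between -0.305 and -0.003. Centring arrays on their medians adds 0.11 to every difference, those of the lists and of all genes alike, and turned the list medians of glutathione and thioredoxin targets (0.073), haem and iron targets (0.065) and transporters (0.047) above 0.

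Abcc3, a conjugate exporter that NRF2 can induce, was the called gene. It read 10.06, 9.90 and 10.05 in WT and 10.88, 10.81 and 10.91 in KO, so the groups lay far apart relative to their spread. It rose by 0.86 ± 0.10 (SE, n = 3 per group, adjusted p = 0.0342), a 1.82-fold higher intensity. The size was 0.81 to 0.89 whichever 1 mouse was left out, but the call ended each time (adjusted p = 0.0911 to 0.13), as it did with a term for low against high title numbers (adjusted p = 0.0987) and without both WT 497 and KO 493 (adjusted p = 0.226). Its smallest adjusted p, with the trend, was 0.00136. Abcc3 lies on chromosome 11, and the part of that position was not tested. Over 5 transporters the median difference was -0.06.

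Among antioxidant targets, Srxn1, sulfiredoxin, which repairs overoxidised peroxiredoxins, read 9.78, 9.40 and 9.72 in WT and 10.30, 10.43 and 10.34 in KO. Its difference was 0.72 ± 0.13 (adjusted p = 0.0771), with 4 probe sets between 0.14 and 0.77, and it was called with arrays centred on their medians, with dim probe sets left out and with the trend (adjusted p = 0.0126 to 0.255 over the 14 alternatives that kept this probe set). Gss, glutathione synthetase, was at 0.60 ± 0.16 (adjusted p = 0.135). A further 4 common NRF2 readouts were named after their values were seen. Gclc and Gclm, the subunits of the rate-limiting enzyme of glutathione synthesis, were at -0.05 ± 0.09 and -0.18 ± 0.12, Txnrd1, thioredoxin reductase, at 0.27 ± 0.12 and Hmox1, haem oxygenase, which is counted in the haem and iron list, at -0.04 ± 0.14. With arrays centred on their medians Gclc and Hmox1 turned to 0.063 and 0.073. All these values are of the brightest probe set. The dimmer one of Gclm was at -0.28 ± 0.10 (adjusted p = 0.196), with all KO values below all WT values. That of Gclc was at -0.08. At the brightest probe set of Txnrd1 all KO values lay above all WT values (adjusted p = 0.264). The others of Txnrd1 were at 0.37 and 0.22, and their groups overlapped. Over the 10 measured glutathione and thioredoxin targets 0 were called, 2 higher and 1 lower had an unadjusted p under 0.05, and the median was -0.04.

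Detoxification targets had a median of -0.14 over 18 measured genes, with 0 called, and 1 higher and 5 lower at an unadjusted p under 0.05. Gstm1, a glutathione transferase, was at -0.79 ± 0.14 (adjusted p = 0.0744), and its 4 probe sets at -0.79 to -0.28. It was called with dim probe sets left out and with the trend (adjusted p = 0.0207 to 0.288 over the 14 alternatives that kept this probe set), and its brightest probe set is of a type (_x_at) that can share probes with related genes. Gstm5, of the same family, was at 0.58 ± 0.13 (adjusted p = 0.106). Lower values in this list stood beside lower neutrophil, B cell and macrophage markers in the same KO arrays, whose part was not tested. The Gss value above and the Tkt value below also came from _x_at probe sets. Those of Srxn1 and Idh1 came from _s_at probe sets, a type left out together with _x_at in an alternative.

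Among 8 haem and iron targets 0 were called, 1 lower had an unadjusted p under 0.05, and the median was -0.05. Slc48a1, a haem transporter, was at -0.33 ± 0.11 (adjusted p = 0.174) and Blvra, biliverdin reductase, at 0.21 ± 0.11 (adjusted p = 0.363). Of 4 NADPH and pentose phosphate genes 0 were called and 1 higher and 1 lower had an unadjusted p under 0.05, with Idh1, cytosolic isocitrate dehydrogenase, at -0.36 ± 0.10 (adjusted p = 0.138) and Tkt, transketolase, at 0.25 ± 0.09 (adjusted p = 0.213), with 3 probe sets between -0.02 and 0.35.

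Regulators of NRF2 other than Keap1 had 0 of 15 called, 1 lower at an unadjusted p under 0.05, and a median of 0.00. Btrc, the F-box protein of a second ligase for NRF2, read lower in all KO arrays than in any WT array, at -0.66 ± 0.12 (adjusted p = 0.0744). It was called with dim probe sets left out and with the trend (adjusted p = 0.00639 to 0.28 over all alternatives), and its 5 probe sets ran from -0.83 to 0.05. Prkcd, a kinase that can phosphorylate NRF2, was at -0.57 ± 0.26 (adjusted p = 0.284), and at -0.29 without WT 497. The other CNC and small MAF genes had lower KO means in 4 of 4, 0 calls and 2 lower at an unadjusted p under 0.05, with Bach2 at -0.60 ± 0.18 (adjusted p = 0.155) and Nfe2l3 at -0.44 ± 0.12 (adjusted p = 0.141). The 3 probe sets of Nfe2l3 ran from -0.44 to 0.17, with a mean at -0.10, and the 3 of Bach2 from -0.95 to -0.60. Bach2 is known for its role in B cells, and B cell markers were lower on the same arrays (median difference -0.61), whose part was not tested.

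The proteasome subunits, textbook targets of NFE2L1, had higher KO means in 30 of 34 genes, with a median of 0.12 beside -0.04 for all genes. None was called, 3 higher and 0 lower had an unadjusted p under 0.05 (8.82%, against 21.0% of all genes), and in 14 of 34 the KO values lay wholly above the WT values (41.2%, where 12.5% of all genes were apart in this direction and 28.8% in either). The mean levels of the 34 ranked at 77.0 to 98.9% of all probe sets, whereas all genes include dim ones. With dim probe sets left out, 29.3% of the remaining probe sets had an unadjusted p under 0.05. Psmb3, on chromosome 11, was at 0.32 ± 0.11 (adjusted p = 0.194) and Psmd2 at 0.29 ± 0.10 (adjusted p = 0.198). Of the 34 genes 6 lie on chromosome 11, and the median over the other 28 was also 0.12. The mean level of the list ran from 11.33 to 11.37 in KO arrays, above the 11.17 to 11.29 of WT arrays. Nfe2l1 itself had the lower KO values given before. The 6 measured genes that process NFE2L1 gave 0 calls and no unadjusted p under 0.05, with Vcp, the ATPase that extracts it from the membrane, at 0.22 ± 0.12 (adjusted p = 0.339; its other probe set was at -0.15 and the mean of both at 0.037) and Ngly1, which removes its sugars, at -0.10 ± 0.10 (adjusted p = 0.596).

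**Figure D3:**
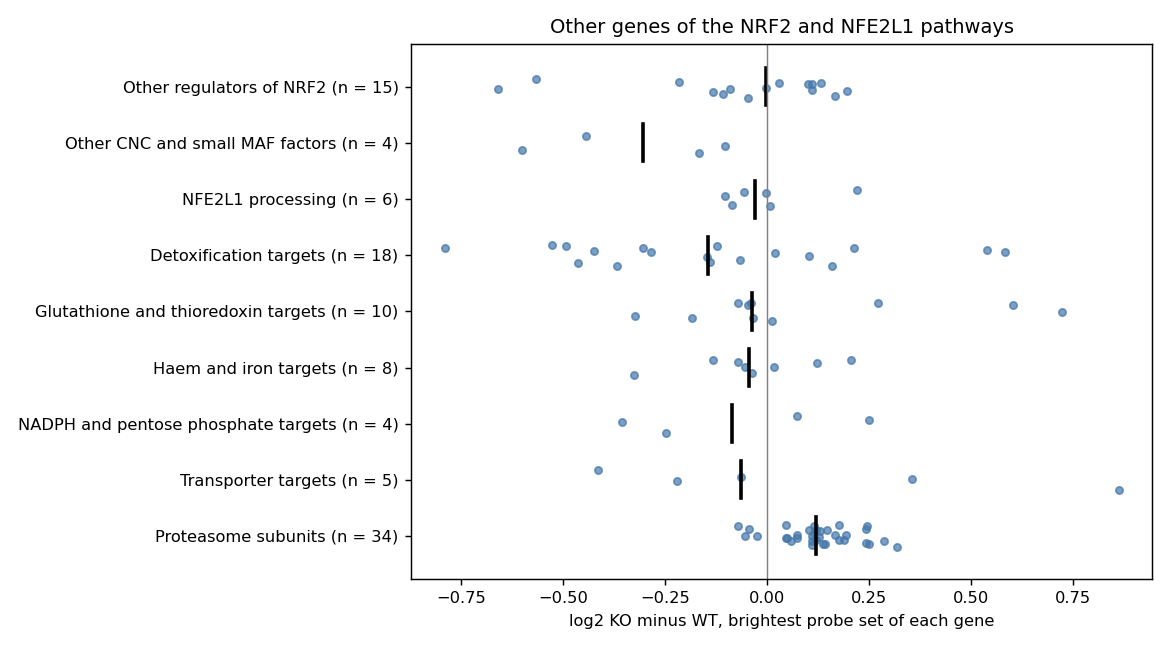
Log2 difference KO minus WT (horizontal axis) of each measured gene in 9 lists of NRF2 and NFE2L1 pathway genes, 1 point per gene by its brightest probe set, with the list median as a black line. Points are spread vertically only for legibility. Proteasome subunits lie mostly above 0, with a median of 0.12, and detoxification targets range from -0.79 to 0.58.

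Differences of the brighter Nfe2l2 probe set stayed between 0.38 and 0.53 over 15 other settings, those of the brighter Bach1 probe set between 0.27 and 0.42 and those of Nfe2l1 between -0.48 and -0.31. Osgin1 ranged from -1.17 to -0.45.

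**Figure D4:**
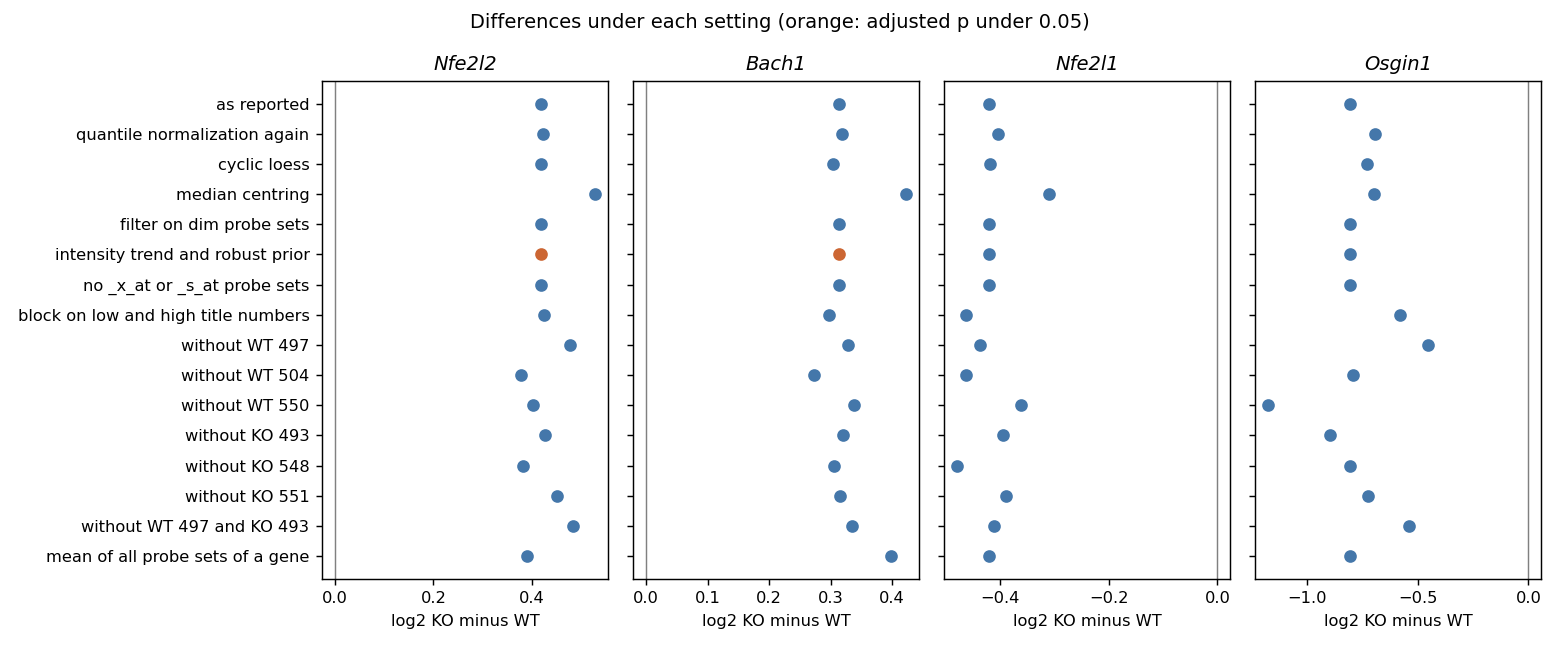
Log2 difference KO minus WT (horizontal axis, a separate scale for each gene) of the brighter or only probe set of 4 genes under the reported and 15 other settings (vertical axis). Orange points have an adjusted p under 0.05. Nfe2l2 and Bach1 pass only under the intensity trend and robust prior, and no sign changes for these 4 genes.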

How the data were processed

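Expression was measured on 6 arrays, 3 per genotype. The deposited intensity values were made by the authors with RMA, per the submitters' processing notes (version not given); RMA fits all arrays together, so a shift of most transcripts would be partly removed. The deposited values were linear, and all (100%) were, within 0.0051, powers of 2 whose exponents have 2 decimals, so they were returned to log2 without pseudocount or further normalization. After 64 control probe sets were left out, 45037 were tested in R 4.3.3 with limma 3.58.1, by lmFit and eBayes with genotype as the single term; an adjusted p under 0.05 was a call. The fit was checked on simulated data. Standard errors are limma's. Probe sets were named from GEO's platform annotation: 34945 had 1 gene, 932 several and 9160 none here, and 99.4% of the first matched NCBI RefSeq genes of GRCm38.p6 by gene ID. The number of arrays limits precision. Nothing states that samples were separate litters or days, so p-values measure only the spread between these samples. No array pair was identical.

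The 10 genes and all lists were chosen with earlier results of these data known. Named genes were the 10, per list the called genes (at most 4) or else the 2 with the smallest p, and the 5 most like Nfe2l2. Alternatives changed the normalization, filter, variance model, probe sets used, blocks and arrays included. The block separated title numbers under 510 from those over 540; no label calls these batches, and the same numbers also appear in a label as a microRNA construct.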

Additional observations from a re-analysis of the deposited data

How the results depend on the processing

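None of the 16 probe sets was called under 14 of 15 alternatives; 2 were called with the intensity trend and robust prior. Called probe sets overall numbered 160 as reported, 411 with median centring, 1015 with dim probe sets left out, 1592 with the trend, 17 with the block, 11 without WT 497 and KO 493, and 8 to 23 without any 1 array. The 1 called pathway gene became 2, 4, 11, 0, 0 and 0 (0 to 0 without any 1 array) in the same order. Median centring moved the median of all probe sets by 0.11 and turned the sign of Mafk (0.01), Nqo1 (0.037), the brighter Slc7a11 (0.037), Ngly1 (0.0067), Gclc (0.063) and Hmox1 (0.073). It also turned the list medians of glutathione and thioredoxin targets (0.073), haem and iron targets (0.065), transporters (0.047), NADPH genes (0.023), NRF2 regulators (0.11) and NFE2L1 processing genes (0.08), and moved those of detoxification targets to -0.033 and proteasome subunits to 0.23. The transporter median was also above 0 with quantile normalization (0.0075), without dim (0.15) or without _x_at and _s_at probe sets (0.15), with averaged probe sets (0.005), and without WT 504 (0.068), KO 493 (0.018) or KO 551 (0.033). Slc7a11 also turned without WT 497 and KO 493 (0.11) and ranged from -0.16 to 0.063 without any 1 array, and Hmox1 from -0.14 to 0.06. Averaging a gene's probe sets turned Keap1 (-0.072) and Me1 (0.19). The cause of these changes was not tested. The filter dropped 5 of the 16 probe sets. No paired analysis was made because nothing in the labels says whether KO and WT mice were paired.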
